A study of Mus musculus with 15 samples.

Results

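NF-κB is a family of dimeric transcription factors held in the cytoplasm by IκB proteins until a receptor signal removes them. Its target genes include those of its own inhibitors, which close the loop as negative feedback, and of adhesion molecules that bind leukocytes. In stellate cells of the liver the pathway is known as a route by which TLR4 and cytokine receptors switch on inflammatory genes. The genes described here are 10 members of that pathway out of 38277 gene identifiers measured: the subunits Rela, Relb, Nfkb1 and Nfkb2, the inhibitors and feedback genes Nfkbia, Nfkbie, Tnfaip3 and Birc3, and the adhesion genes Icam1 and Vcam1. They were chosen by symbol, and each was found once in both deposited tables. Of the 10, 9 had a mean of at least 1 FPKM (fragments per kilobase of transcript and 1000000 mapped fragments) and were tested; Icam1 was below that level.

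The RNA came from JS1, an immortalised line of hepatic stellate cells of the mouse. Its labels describe it as TLR4-/- with wild-type TLR4 expressed in it, and all groups share that genotype. The 15 libraries fall into 4 groups: 4 with XPO4 overexpression and TGFβ (a cytokine that activates stellate cells), 4 with the empty vector and TGFβ, 3 with XPO4 overexpression at baseline, and 4 with the empty vector (EV) at baseline, which means untreated. Libraries are numbered from 0 within each group, and the study asked how the construct changes the transcriptome with and without TGFβ. The labels do not give the dose or duration of TGFβ or the species of the construct, and they do not say that libraries of a group came from separate cultures, so the p-values reflect library-to-library spread that could be technical only. All results come from 1 cell line.

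The construct was visible in its own gene, Xpo4, which encodes the nuclear export receptor exportin-4: its mean was 2.04-fold higher in XPO4 than in empty-vector cells with TGFβ and 2.06-fold higher at baseline (limma adjusted p = 0.0105 and 0.00669), with no overlap between libraries in either treatment. Read depth is not stated. The lowest step of values above 0 among 1389 single-exon genes over 1000 bases long lay at 0.218 to 0.27 FPKM times kilobase in a library, which is what 1 fragment would be worth in a library of about 3700000 to 4600000 fragments. On that estimate the number of fragments behind the members differed widely between genes, from 1 to 9 per library for Icam1 and 21 to 59 for Nfkbia to 418 to 895 for Tnfaip3 and 1511 to 3158 for Vcam1. Of the 12 markers of stellate cells or fibroblasts, Vim and Col1a1 were abundant (medians of 2650.0 and 130.0 FPKM over the 15 libraries), Pdgfrb had a median of 0.731 FPKM, and Lrat and Thy1 were listed at 0 in all 15. The mesothelial genes Msln and Upk3b had medians of 60.7 and 75.4 FPKM, so the cells carried only some of the defining markers of their label. The 8 endothelial markers summed to between 0.787 and 3.58 FPKM in a library, with Emcn at 0 throughout, and the 6 hepatocyte markers to at most 0.636 FPKM. Among 9 measured leukocyte markers, Cd3e was at 0 in all libraries and Ptprc reached at most 0.0565 FPKM. Cd14, Cd68, Csf1r and Lyz2 were above 0 in all 15 libraries, with medians of 20.4, 4.68, 3.49 and 1.72 FPKM.

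Promoter sequences are shown for Tnfaip3, the member that rose with XPO4, and for the inhibitor genes Nfkbia and Nfkbie, for which no call was made, because all 3 hold matches to the κB consensus, the 10-base motif that NF-κB dimers bind. Each line gives, from RefSeq (GRCm38.p6), bases before the start site read 5′ to 3′, with κB matches on either strand in capitals. For Tnfaip3 the 137 bases between the start site and an upstream exon in GENCODE are shown, and for the other genes 250 bases. Those 137 bases lie within the GENCODE span of Tnfaip3, and the start site used is that of RefSeq.
Tnfaip3 promoter, chr10:19015411-19015547, strand -: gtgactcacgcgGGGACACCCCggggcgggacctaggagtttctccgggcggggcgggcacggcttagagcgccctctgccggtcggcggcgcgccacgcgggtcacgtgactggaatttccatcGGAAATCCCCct
Nfkbia promoter, chr12:55492648-55492897, strand -: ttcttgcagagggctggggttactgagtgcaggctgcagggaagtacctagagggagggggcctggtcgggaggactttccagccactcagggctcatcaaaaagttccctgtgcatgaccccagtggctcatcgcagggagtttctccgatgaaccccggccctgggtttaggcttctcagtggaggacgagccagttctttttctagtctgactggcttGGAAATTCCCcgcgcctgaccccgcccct
Nfkbie promoter, chr17:45555450-45555699, strand +: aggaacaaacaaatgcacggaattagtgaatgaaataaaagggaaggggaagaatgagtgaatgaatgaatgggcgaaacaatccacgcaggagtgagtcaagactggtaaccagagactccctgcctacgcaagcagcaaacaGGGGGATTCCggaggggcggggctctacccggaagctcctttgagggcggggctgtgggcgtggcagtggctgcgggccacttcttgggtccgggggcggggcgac

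In the Tnfaip3 promoter the matches begin at positions -125 and -12 from the start site, in that of Nfkbia at -29 and in that of Nfkbie at -106. RefSeq windows of 300 bases (250 before and 50 after a start site) were at hand for 7 of the 10 members, as 10 windows. The κB consensus occurred in 6 of these windows, from 4 members (Nfkb2, Nfkbia, Nfkbie and Tnfaip3), and in 8.46% of all 32851 windows in the RefSeq table. Of the 6, 3 belong to Nfkb2, and its windows 2 and 3 overlap and share 1 site, which is the only match in window 3. The members were chosen as genes and targets of NF-κB, so a share of κB matches above that of all windows is built into the choice. No match was found in the windows of Rela, Birc3 and Icam1. The AP-1 motif TGANTCA, searched on both strands, occurred in 3 of the 10 windows and in 7.81% of all; its match in the first Tnfaip3 window begins at position -136 and does not overlap the κB matches. The STAT motif TTCNNNGAA occurred in 2 of the 10 windows and 8.3% of all, and the core of the interferon-stimulated response element in 0 of the 10 and 3.44% of all. A match describes letters in a window and does not show binding.

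Between the constructs, 1 of these genes passed the test, the feedback gene Tnfaip3, which was higher in XPO4 cells in both treatments. With TGFβ 1 of 9 tested members rose and 0 fell, where 3.74% of 11976 genes were called (2.89% rose and 0.852% fell). At baseline 1 of 9 rose and 0 fell, where 3.71% of 11926 genes were called (2.85% rose and 0.864% fell). With TGFβ 4 of the 9 had an unadjusted limma p under 0.05 (Nfkb1, Nfkbie, Tnfaip3 and Birc3), as did 1676 of all 11976 genes. At baseline 3 had one (Relb, Tnfaip3 and Vcam1), as did 1813 of all 11926 genes. Of the 9 differences 8 were above 0 in each treatment, all but that of Vcam1, with medians of 0.25 with TGFβ and 0.16 at baseline; the medians over all tested genes were -0.0048 and -0.0044. Libraries of the 2 constructs had no overlap in level for 2 of the 9 with TGFβ (Nfkbie and Tnfaip3; 10.2% of all tested genes) and for 3 of the 9 at baseline (Nfkb2, Tnfaip3 and Vcam1; 16.2%).

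Between TGFβ and baseline, 0 of 9 members were called in XPO4 cells, where 1.77% of 11951 genes were (1.19% rose and 0.577% fell). In empty-vector cells 1 of 9, Vcam1, fell and 0 rose, where 1.77% of genes were called (1.24% rose and 0.536% fell). The TGFβ and baseline libraries did not overlap for 1 of the 9, again Vcam1, in XPO4 cells (9.85% of all tested genes) and in empty-vector cells (7.82%), and the median differences were -0.0031 and -0.03. For the interaction of construct and treatment limma called 0 of 11951 genes (0%; 344 had an unadjusted p under 0.05), and none of the 9 members had an unadjusted p under 0.05 there. In XPO4 cells the 95% intervals of the TGFβ effect on Rela, Nfkb1 and Nfkb2 lay between -0.24 and 0.25, and that on Birc3 ran from -0.49 to 0.79.

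The clearest difference among the members was in Tnfaip3, which encodes the ubiquitin-editing enzyme A20, an inhibitor that shuts off signalling from TNF, interleukin-1 and Toll-like receptors. Tnfaip3 (ENSMUSG00000019850, chromosome 10, 19000910 to 19015657 on mm10) measured 51.6, 44.6, 45.8 and 42.3 FPKM in the XPO4 libraries with TGFβ, against 25.1, 29.4, 33.2 and 30.4 FPKM in the empty-vector libraries with TGFβ. Every XPO4 library lay above every empty-vector library, averaging 46.1 ± 3.96 FPKM in XPO4 cells against 29.5 ± 3.35 FPKM in empty-vector cells (SD, n = 4 each; 1.56-fold). Tnfaip3 rose by 0.63 in log2(FPKM + 1) (SE 0.10, limma adjusted p = 0.00622, Benjamini-Hochberg over 11976 genes), and the call held whichever library was left out (limma adjusted p = 0.0072 to 0.0253). Bulk RNA does not tell a change in every cell from a change in the share of cells that express a gene.

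At baseline the same gene measured 42.3, 38.4 and 46.5 FPKM in the XPO4 libraries and 26.6, 29.4, 34.1 and 24.4 FPKM in the empty-vector libraries. Again the groups did not overlap, averaging 42.4 ± 4.06 FPKM in XPO4 cells (n = 3) against 28.6 ± 4.21 FPKM in empty-vector cells (n = 4, SD; 1.48-fold). Tnfaip3 rose by 0.56 (SE 0.12, limma adjusted p = 0.043), close to the threshold of 0.05. Dropping EV 0, EV 1 or EV 3 ended the call (limma adjusted p = 0.115, 0.0906 and 0.0919), as did dropping XPO4 0, XPO4 1 or XPO4 2 (0.146, 0.0715 and 0.149), while the difference itself stayed between 0.49 and 0.64 over all 7 such fits. The differences within the 2 runs of library codes in the labels had the same sign. With TGFβ they were 0.80 among replicates 0 and 1 and 0.46 among replicates 2 and 3, and at baseline 0.51 and 0.67. The value of 0.67 rests on 1 XPO4 library, XPO4 2, against 2 empty-vector libraries.

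Across all 4 groups the order of Tnfaip3 was XPO4 with TGFβ, XPO4 at baseline, empty vector with TGFβ and empty vector at baseline. Only the step from XPO4 at baseline to the empty vector with TGFβ separated the libraries of neighbouring groups. The difference between the XPO4 effects of the 2 treatments was 0.07 (95% interval -0.28 to 0.41, limma adjusted p = 1.0), so no dependence on TGFβ was detected, with an interval that includes sizeable ones. Over the 15 libraries the genes with the most similar profile were Ascc3, Zc3hav1 and Etnk1, whose mean-centred log2 values lay 0.111, 0.121 and 0.122 (root mean square) from those of Tnfaip3, out of 10615 candidates; Tnfaip3 itself varied by 0.333 around its mean.

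**Figure D1:**
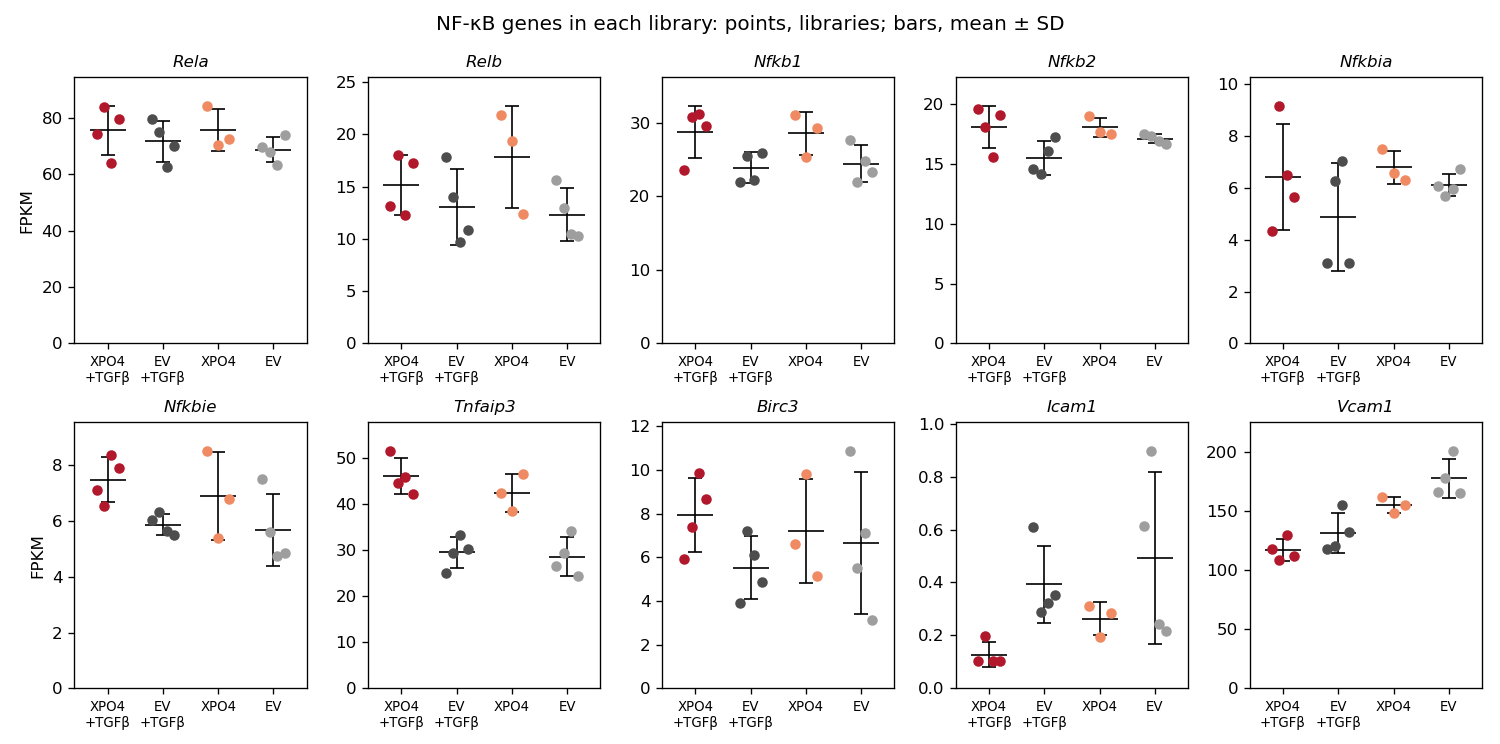
FPKM (vertical axes, linear, starting at 0) of the 10 NF-κB genes in each of the 15 libraries, by group: XPO4 with TGFβ, empty vector (EV) with TGFβ, XPO4 at baseline and EV at baseline. Points are libraries and bars show the mean ± SD; in the Tnfaip3 panel the XPO4 libraries (38.4 to 51.6 FPKM) lie above all empty-vector libraries (24.4 to 34.1 FPKM), and in the Vcam1 panel the TGFβ libraries (108.7 to 155.3 FPKM) lie below all empty-vector libraries at baseline (165.0 to 201.1 FPKM).

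The other feedback genes did not pass the test in either treatment. Nfkbia (chromosome 12, 55489410 to 55492647) encodes IκBα, the main inhibitor that NF-κB induces to end its own activity, and was expressed at a low level here. With TGFβ, Nfkbia measured 4.33, 9.18, 6.50 and 5.67 FPKM in the XPO4 libraries and 3.12, 6.26, 7.04 and 3.09 FPKM in the empty-vector libraries. The baseline values of Nfkbia were 7.51, 6.58 and 6.31 FPKM in XPO4 and 6.08, 5.71, 5.96 and 6.72 FPKM in empty-vector libraries. The empty-vector libraries with TGFβ held a low pair and a high pair, and the groups overlapped in both treatments. The log2 differences were 0.37 with TGFβ (95% interval -0.24 to 0.98, limma adjusted p = 0.654) and 0.13 at baseline (-0.13 to 0.39, adjusted p = 0.662).

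Nfkbie (chromosome 17, 45555703 to 45563169) encodes IκBε, a slower-acting inhibitor of the same family. Nfkbie measured 7.09, 6.55, 8.36 and 7.90 FPKM in XPO4 cells given TGFβ, against 6.02, 6.33, 5.62 and 5.50 FPKM in empty-vector cells given TGFβ. Without TGFβ, Nfkbie measured 8.51, 5.37 and 6.79 FPKM in XPO4 cells and 7.51, 5.59, 4.73 and 4.85 FPKM in empty-vector cells. With TGFβ the groups did not overlap and differed by 0.30 (95% interval 0.05 to 0.56), with a limma adjusted p of 0.25, and at baseline they overlapped and differed by 0.24 (-0.18 to 0.67, adjusted p = 0.618).

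Birc3 (chromosome 9, 7848699 to 7873186) encodes cIAP2, a ubiquitin ligase of the TNF receptor complex and a textbook NF-κB target. The TGFβ-treated libraries had 5.90, 7.39, 9.84 and 8.66 FPKM of Birc3 with XPO4 and 3.89, 7.20, 6.12 and 4.87 FPKM with the empty vector. The untreated ones had 6.59, 9.81 and 5.16 FPKM of Birc3 with XPO4 and 10.9, 5.52, 7.10 and 3.14 FPKM with the empty vector. Among the empty-vector libraries at baseline it had a coefficient of variation of 48.8%, the highest of the tested members in that group, while with TGFβ Nfkbia varied more (42.5% against 26.2% for Birc3 in empty-vector cells). The XPO4 and empty-vector libraries overlapped in both treatments, with log2 differences of 0.46 with TGFβ (95% interval 0.03 to 0.89, limma adjusted p = 0.307) and 0.16 at baseline (-0.61 to 0.93, adjusted p = 0.883).

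None of the 4 subunit genes passed the test for XPO4 in either treatment. Rela (chromosome 19, 5637483 to 5648130) encodes p65, the activating subunit of the canonical dimer, and was the most abundant subunit gene per transcript length. Rela measured 74.3, 84.0, 64.1 and 79.5 FPKM in XPO4 cells given TGFβ, against 79.5, 74.8, 62.5 and 70.0 FPKM in empty-vector cells given TGFβ. Without TGFβ, Rela measured 84.3, 70.3 and 72.6 FPKM in XPO4 cells and 69.6, 67.7, 63.3 and 74.0 FPKM in empty-vector cells. The groups overlapped, with log2 differences of 0.07 with TGFβ (95% interval -0.17 to 0.31, limma adjusted p = 0.856) and 0.14 at baseline (-0.06 to 0.33, adjusted p = 0.53). Nfkb1 (chromosome 3, 135584655 to 135691547), which encodes p105 and its product p50, the partner of p65, came second. The TGFβ-treated libraries had 23.6, 30.7, 31.2 and 29.6 FPKM of Nfkb1 with XPO4 and 21.9, 25.6, 22.2 and 25.9 FPKM with the empty vector. The untreated ones had 31.0, 25.4 and 29.2 FPKM of Nfkb1 with XPO4 and 27.7, 21.9, 24.8 and 23.4 FPKM with the empty vector. Its differences were 0.25 (95% interval 0.0046 to 0.50, limma adjusted p = 0.343) with TGFβ and 0.22 (-0.02 to 0.46, adjusted p = 0.391) at baseline, with overlapping libraries in both.

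Relb (chromosome 7, 19606217 to 19629438) and Nfkb2 (chromosome 19, 46304320 to 46312385) encode RelB and p100. The processed product of p100 pairs with RelB in the non-canonical dimer, and both genes are NF-κB targets themselves. With TGFβ, Relb measured 13.2, 18.0, 12.3 and 17.3 FPKM in the XPO4 libraries and 17.8, 14.0, 9.70 and 10.8 FPKM in the empty-vector libraries. The baseline values of Relb were 21.8, 19.3 and 12.4 FPKM in XPO4 and 15.6, 13.0, 10.4 and 10.3 FPKM in empty-vector libraries. High and low libraries occurred in every group, so the groups overlapped in both treatments. The log2 differences were 0.22 (95% interval -0.21 to 0.65, limma adjusted p = 0.714) with TGFβ and 0.48 (0.01 to 0.95, limma adjusted p = 0.314) at baseline. Among replicates 0 and 1 and among replicates 2 and 3 the difference was -0.034 and 0.47 with TGFβ, with a change of sign. At baseline it was 0.50 and 0.23, the latter from 1 XPO4 library against 2 empty-vector libraries. Nfkb2 measured 19.6, 18.1, 15.6 and 19.1 FPKM in XPO4 cells given TGFβ, against 14.6, 14.2, 16.1 and 17.3 FPKM in empty-vector cells given TGFβ. Without TGFβ, Nfkb2 measured 19.0, 17.7 and 17.6 FPKM in XPO4 cells and 17.5, 17.4, 17.0 and 16.7 FPKM in empty-vector cells. Nfkb2 was the steadiest member in empty-vector cells at baseline, with a coefficient of variation of 2.24%. The XPO4 libraries there lay just above the empty-vector ones, by 0.07 (95% interval -0.10 to 0.25, limma adjusted p = 0.72), and with TGFβ the groups overlapped and differed by 0.21 (-0.03 to 0.45, adjusted p = 0.428).

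**Figure D2:**
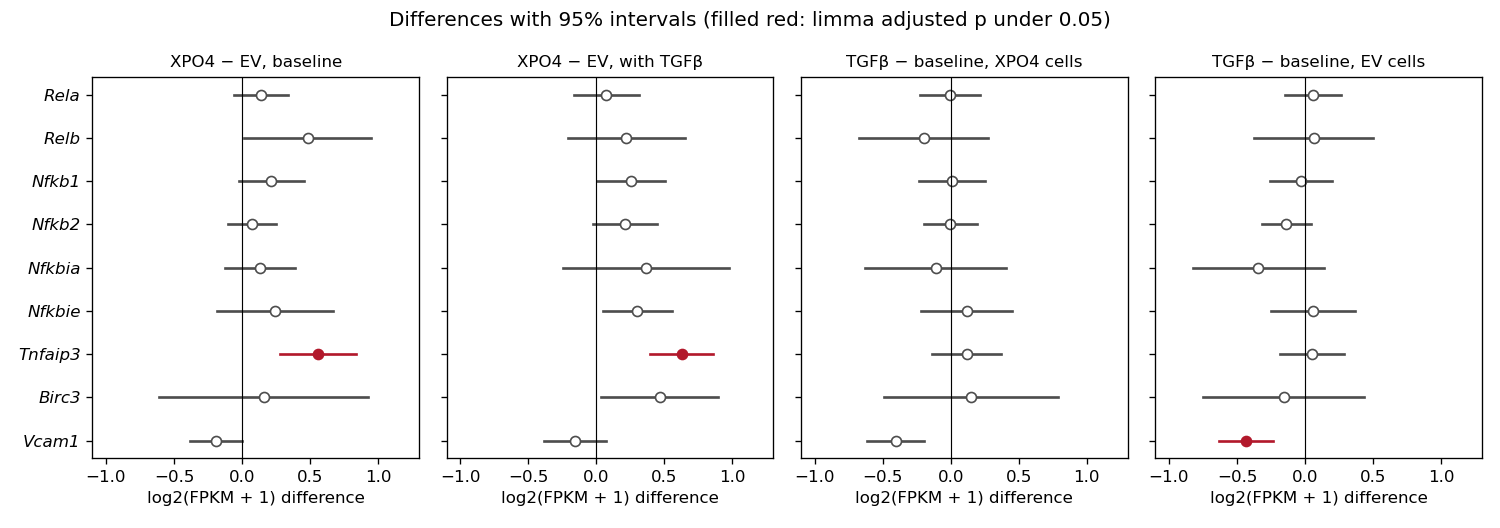
Differences in log2(FPKM + 1) (horizontal axes) of the 9 tested NF-κB genes, with 95% intervals from limma, for XPO4 minus empty vector at baseline and with TGFβ and for TGFβ minus baseline in XPO4 and in empty-vector cells. Filled red points passed an adjusted p of 0.05: Tnfaip3 in both XPO4 comparisons (0.56 and 0.63) and Vcam1 in the TGFβ comparison of empty-vector cells (-0.44).

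The adhesion genes stood at opposite ends of the expression range. Vcam1 encodes VCAM-1, the ligand of the leukocyte integrin VLA-4, and averaged 178 ± 16.7 FPKM (SD, n = 4) in empty-vector cells at baseline, above 96.5% of 11951 genes. Icam1 (chromosome 9, 21015985 to 21028817), whose product ICAM-1 binds the leukocyte integrin LFA-1, stayed below 1 FPKM in all 15 libraries. The TGFβ-treated libraries had 118, 109, 130.1 and 112 FPKM of Vcam1 with XPO4 and 118, 120.2, 155 and 132 FPKM with the empty vector. The untreated ones had 162, 148 and 155 FPKM of Vcam1 with XPO4 and 166, 178, 201 and 165 FPKM with the empty vector. With TGFβ every library of either construct had less than the lowest empty-vector library at baseline, and in each construct the TGFβ libraries lay below the untreated ones.

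Vcam1 (ENSMUSG00000027962, chromosome 3, 116109949 to 116129688) fell with TGFβ in empty-vector cells, by 0.44 in log2 units (SE 0.09, limma adjusted p = 0.0239; ratio 0.74). In XPO4 cells the difference was -0.41 (SE 0.10, ratio 0.755) and missed the threshold with an adjusted p of 0.055, and the difference between the 2 TGFβ effects was 0.03 (95% interval -0.26 to 0.32). Dropping EV 1 or EV 2 at baseline (limma adjusted p = 0.0628 and 0.0772), or EV 0, EV 1 or EV 3 with TGFβ (0.0738, 0.0953 and 0.0594), ended the call in empty-vector cells, and dropping EV 2 at baseline, EV 2 with TGFβ or XPO4 2 with TGFβ made one in XPO4 cells (0.0425, 0.0242 and 0.0365). The TGFβ libraries form a table of their own, so the treatment and any difference between the tables cannot be told apart.

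Between constructs Vcam1 did not pass in either treatment: the XPO4 minus empty-vector difference was -0.16 with TGFβ (95% interval -0.39 to 0.07, limma adjusted p = 0.565) and -0.19 at baseline (-0.38 to -0.0032, adjusted p = 0.319). At baseline the 3 XPO4 libraries lay below the 4 empty-vector libraries, and with TGFβ the groups overlapped. Over the 4 groups Vcam1 was highest with the empty vector at baseline, then with XPO4 at baseline, the empty vector with TGFβ and XPO4 with TGFβ, and of these neighbours only the first pair did not overlap. The summed level of the 8 cholangiocyte and mesothelial markers, for which no test was run, did not overlap between constructs: 98.1 to 117.0 FPKM in XPO4 libraries with TGFβ and 156.0 to 170.0 FPKM in empty-vector libraries with TGFβ, and 127.0 to 138.0 FPKM in XPO4 and 195.0 to 207.0 FPKM in empty-vector libraries at baseline, with Epcam at 0 in all of them. Most of the sum came from the mesothelial genes Upk3b and Msln (medians of 75.4 and 60.7 FPKM), while Krt19, Krt7 and Sox9 had medians of 5.37, 0.981 and 0.675 FPKM. Among single genes 10.2% did not overlap with TGFβ and 16.2% at baseline. The part of this sum in the values of Vcam1, or of the genes that rose with XPO4, was not tested.

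With TGFβ, Icam1 measured 0.103, 0.198, 0.102 and 0.104 FPKM in the XPO4 libraries and 0.608, 0.288, 0.324 and 0.352 FPKM in the empty-vector libraries. The baseline values of Icam1 were 0.311, 0.193 and 0.287 FPKM in XPO4 and 0.612, 0.898, 0.244 and 0.215 FPKM in empty-vector libraries. The estimated fragment numbers behind these values were 1 to 2 per XPO4 library and 3.1 to 6.5 per empty-vector library with TGFβ, and 2.1 to 3.2 and 2.1 to 9.1 at baseline. With TGFβ the XPO4 libraries lay below the empty-vector ones (exact two-sided permutation p = 0.0286, n = 4 and 4, the smallest this design allows), and with no filter on low values limma gave an adjusted p of 0.156. At baseline the groups overlapped (exact two-sided permutation p = 0.457, n = 3 and 4). No fold is given for so few fragments.

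The rest of the pathway was followed through 67 further genes, of which 66 were found in the tables and 54 were tested in each XPO4 comparison. With TGFβ 6 of the 54 rose and 0 fell (11.1%, against 3.74% of all genes called in either direction), with a median difference of 0.09. At baseline 8 rose and 0 fell (14.8%, against 3.71%), with a median of 0.09. The count of 8 became 4 when EV 1, EV 3, XPO4 0 or XPO4 2 was dropped. The counts of both treatments include Il6, which reached a mean of 1 FPKM only through its XPO4 libraries, where it was high. In all, 9 genes rose in at least 1 treatment and 5 in both, with Il6 among the 5. The share of all tested genes that rose in either treatment or in both was not counted. For the TGFβ effects and the interaction 0 of the 54 were called by limma (6, 7 and 0 had an unadjusted p under 0.05 in XPO4 cells, in empty-vector cells and for the interaction). Of all 11951 genes 1202, 1373 and 344 had such a p, in the same order, and 1.77% were called for each TGFβ effect.

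In the list of IKK and related kinases with their adaptors, 0 of 10 genes passed in either treatment. Neither did any receptor-proximal signalling gene (0 of 11) or further subunit or IκB gene (0 of 6). Over all tested genes 3.74% were called with TGFβ and 3.71% at baseline, so 0 in lists this short is near that share. Of 11 tested receptors and adaptors, Tlr3, the endosomal sensor of double-stranded RNA, had the largest difference: 47.2 ± 11.0 FPKM in XPO4 and 9.40 ± 1.78 FPKM in empty-vector cells with TGFβ (SD, n = 4 each; log2 difference 2.20, limma adjusted p = 3.01e-05), and 36.5 ± 4.06 and 9.85 ± 1.84 FPKM at baseline (SD, n = 3 and 4; limma adjusted p = 0.00011). Tlr4, the receptor given back to this line, did not pass, with 11.3 ± 3.02 FPKM in XPO4 and 8.84 ± 1.88 FPKM in empty-vector cells with TGFβ and 10.6 ± 4.12 and 10.8 ± 2.73 FPKM at baseline; it was chosen after its values were seen.

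Of 18 listed target genes 10 were tested and 8 were below 1 FPKM. Of the 10, 3 rose with TGFβ (3.74% of all tested genes were called) and 6 at baseline (3.71%). Il6, the gene of the cytokine interleukin-6, rose by 1.53 with TGFβ: 4.82 ± 2.09 FPKM in XPO4 and 0.950 ± 0.407 FPKM in empty-vector cells (SD, n = 4 each; limma adjusted p = 0.0081). Its mean in empty-vector cells was under 1 FPKM in both treatments, so it entered the test only through the XPO4 libraries, where it was high, and its place in these counts and in those over the 54 genes is no support for them. Ptx3, which encodes the soluble pattern receptor pentraxin 3, rose by 0.65 with TGFβ (144 ± 14.1 FPKM in XPO4 and 91.7 ± 9.62 FPKM in empty-vector cells) and by 0.69 at baseline, and Csf1, the macrophage growth factor gene, by 0.42 and 0.35. Ier3 (0.67), an early response gene, and Bcl2l1 (0.34) and Cflar (0.46), which encode the inhibitors of cell death BCL-XL and c-FLIP, rose at baseline and did not pass with TGFβ (0.38, 0.27 and 0.33). Of 6 tested negative regulators besides the members, N4bp1 rose by 0.50 with TGFβ and 0.48 at baseline. Of the receptor adaptors Myd88 rose with TGFβ (0.56, limma adjusted p = 0.0333); at baseline its difference was 0.66 and did not pass (limma adjusted p = 0.198), and the interaction was -0.11.

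The calls of Tlr3, Ptx3 and N4bp1 in both treatments, of Il6 and Csf1 with TGFβ and of Ier3 at baseline held with each library left out. The baseline call of Il6 (1.29) ended on dropping EV 1 or EV 3 (limma adjusted p = 0.065 and 0.0512) or any of the 3 XPO4 libraries (0.064, 0.106 and 0.0895 in their order). That of Csf1 ended on dropping EV 0, EV 1 or EV 3 (limma adjusted p = 0.0772, 0.0563 and 0.0745) or XPO4 0 or XPO4 2 (0.123 and 0.102). For Bcl2l1 the same 5 libraries ended it (limma adjusted p = 0.058, 0.0727, 0.065, 0.132 and 0.104). For Cflar it was those 5 (limma adjusted p = 0.106, 0.104, 0.0824, 0.184 and 0.158) and XPO4 1 (0.0612). With TGFβ, the Myd88 call ended on dropping EV 1, EV 2 or EV 3 (limma adjusted p = 0.0515, 0.0963 and 0.0947) or XPO4 0, XPO4 2 or XPO4 3 (0.092, 0.0561 and 0.0872).

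**Figure D3:**
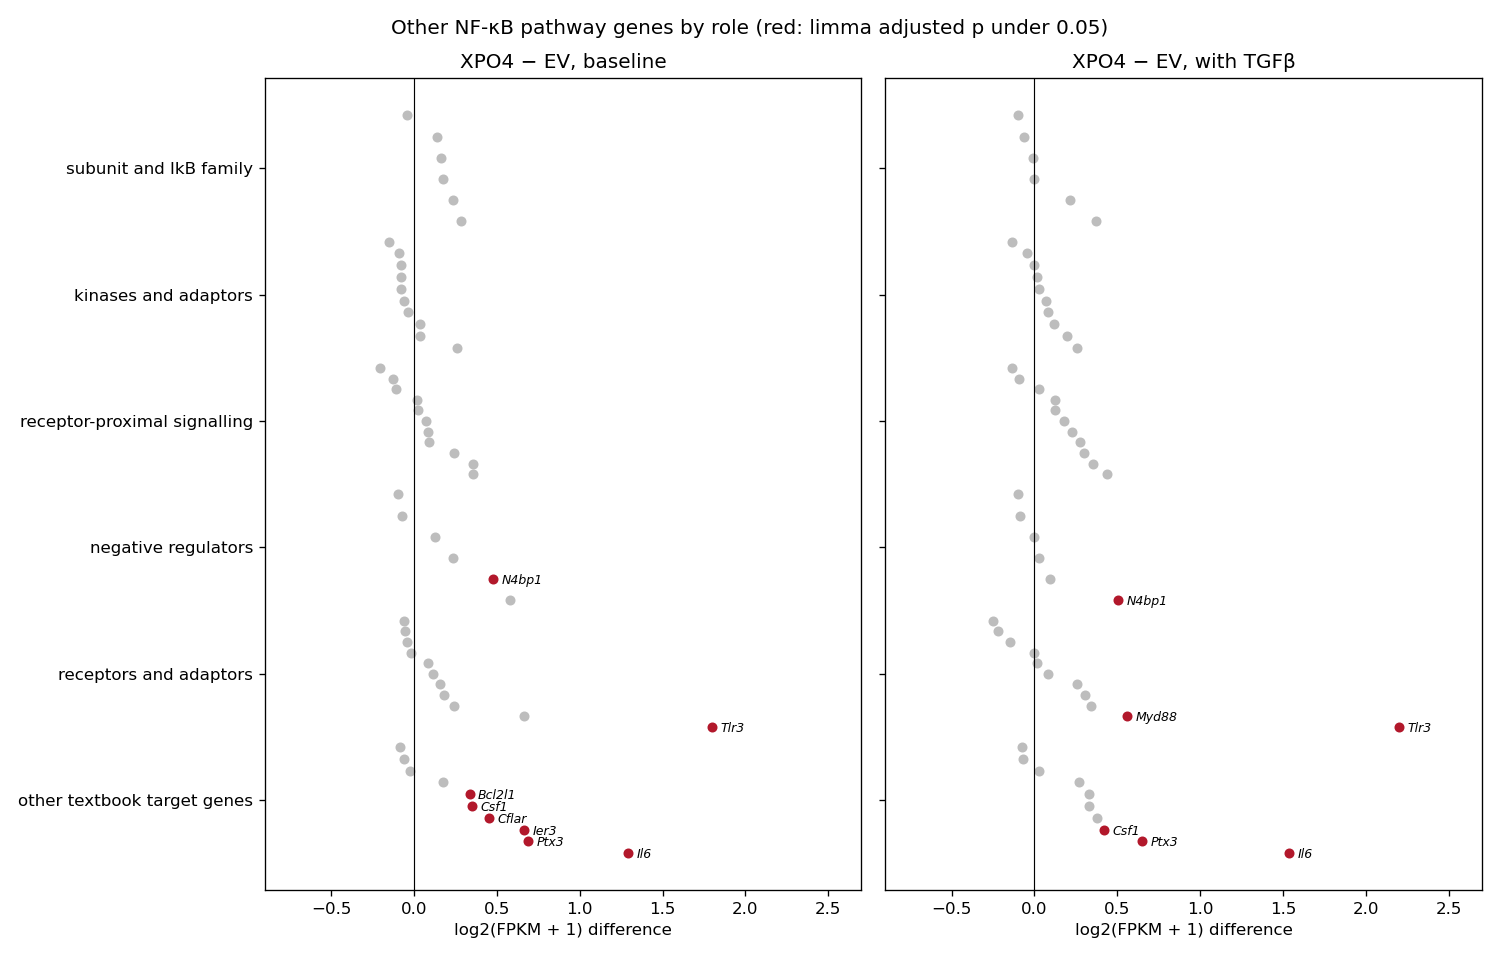
Differences in log2(FPKM + 1) between XPO4 and empty-vector cells (horizontal axes) at baseline and with TGFβ for the 54 tested NF-κB pathway genes that are not among the 10 members, grouped by role; each point is a gene and red points passed an adjusted p of 0.05. The red points lie among the target genes, receptors and negative regulators, with Tlr3 farthest right (2.20 with TGFβ), and the kinases, receptor-proximal genes and subunits hold none. Over all tested genes 3.74% passed with TGFβ and 3.71% at baseline.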

How the data were processed

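The labels' protocols describe poly(A) RNA of JS1 cells and strand-specific libraries. The submitters' processing notes list CASAVA 1.8.2, STAR 2.7.2b, mm10 and GRCh38, with no role for either build; the sources used here do not name the program that computed the values. What the authors deposited are FPKM values, 1 table per treatment (2 tables, 38277 identifiers each), joined here by identifier and summing to 480030 to 526338 per library. Positions are from GENCODE M21.

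Groups came from the titles. FPKM are not counts, so log2(FPKM + 1) was tested with limma 3.58.1 (intensity trend, R 4.3.3) where a gene averaged 1 FPKM or more, with Benjamini-Hochberg adjustment over all tested genes and a threshold of 0.05. Each XPO4 effect was fitted within its table, and TGFβ effects and the interaction on all 15 libraries. The scale understates changes of low genes. Intervals are 95%. The test was tried on simulated data. Icam1 was tested by exact permutation (scipy 1.17.1). Figures used Python 3.11.15 and matplotlib 3.10.9. The depth estimate is the median, between 0.14 and 0.34, of FPKM times kilobase over single-exon genes; it was made after seeing the data.

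The members, the gene lists and the tests were chosen with earlier results of these data known. All members were named, the pathway genes called in an XPO4 effect (at most 12), and the 3 genes with profiles nearest to a member called in an XPO4 effect. Alternatives were pseudocounts of 0.1 and 0.5, no filter, 5 FPKM as the minimum, quantile normalization, scaling to a sum of 1000000, blocks by replicate number and by run of library codes, 1 fit of all 4 groups, and leaving out each library.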

Additional observations from a re-analysis of the deposited data

Results flagged for a closer look

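Of 30 sets of 4 libraries checked (the 10 members in 3 groups), 1 held a library far from the others, where chance flags about 1 in 20. Icam1 was at 0.198 FPKM in 1 of the XPO4 libraries with TGFβ and at 0.102 to 0.104 FPKM in the other 3, an estimated 2 fragments in that library and 1 in each of the others.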

How the results depend on the processing

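The XPO4 call of Tnfaip3 with TGFβ held under all 9 other settings (differences of 0.58 to 0.64, limma adjusted p = 0.0018 to 0.0382) and in 8 of 8 fits with a library left out. At baseline it was lost, so that 0 members were called higher, with no filter (adjusted p = 0.0784), quantile normalization (0.056), the rescaling to a common sum (0.0754), the replicate block (0.115) and the block by library run (0.06), and kept in the other 4; 0 to 1 members were called with a library left out. The cause was not tested. Vcam1 in empty-vector cells lost its TGFβ call, leaving 0 members, under quantile normalization (adjusted p = 0.101) and the rescaling (0.0674); with a library left out 0 to 1 were called. In XPO4 cells 1 member, Vcam1, was called lower with a minimum of 5 FPKM (0.0495), the replicate block (0.0266) and the library-run block (0.0265), and 0 to 1 with a library left out.

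The values do not settle whether the replicate numbers mark pairs of libraries. Deviations of same-numbered XPO4 and empty-vector libraries correlated weakly, at -0.149 to 0.245 with TGFβ and 0.023 to 0.0392 at baseline. With TGFβ 3 of 8 libraries correlated best with their own number, and at baseline 5 of 6 did. The replicate block took the genes called at baseline to 224, against 443, the further pathway genes to 3, against 8, and gave Birc3 a difference of -0.10. It also ended the baseline calls of Xpo4 (limma adjusted p = 0.0891) and N4bp1 (0.103). XPO4 cells at baseline have no replicate 3, so EV 3 carries no weight in the baseline differences of this block. Those differences equal the ones without EV 3, such as -0.10 for Birc3 and 0.49 for Tnfaip3. For TGFβ in XPO4 cells 1 further pathway gene, against 0, was called under quantile normalization, the rescaling and either block. Over all genes, 1 fit of the 4 groups called 676 for XPO4 with TGFβ, against 448, and the rescaling called 1 for the interaction, against 0. With a library left out, the calls over all genes ran from 276 to 451 for XPO4 at baseline (276 and 289 on dropping XPO4 0 and XPO4 1), 337 to 425 with TGFβ, 118 to 214 for TGFβ in XPO4 cells (118 and 130 on dropping XPO4 1 and XPO4 0 at baseline), 108 to 243 in empty-vector cells (108, 121 and 140 on dropping EV 1 with TGFβ, EV 0 at baseline and EV 3 at baseline) and 0 to 1 for the interaction.

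Signs turned only for differences that were not called. For TGFβ in XPO4 cells, Rela was 0.0088 with quantile normalization, 0.0075 with rescaling and 0.012 with the library-run block, Nfkb2 0.011 with rescaling, and Nfkb1 -0.0044 and -0.0012 with the replicate and library-run blocks. With a library left out, the ranges were -0.10 to 0.40 for Birc3 under XPO4 at baseline; for the interaction -0.13 to 0.012 for Rela, -0.042 to 0.13 for Nfkb1, -0.087 to 0.20 for Nfkbie, -0.016 to 0.14 for Tnfaip3 and -0.031 to 0.11 for Vcam1; for TGFβ in XPO4 cells -0.060 to 0.071 for Rela, -0.072 to 0.098 for Nfkb1, -0.041 to 0.063 for Nfkb2, -0.27 to 0.037 for Nfkbia, -0.028 to 0.26 for Nfkbie and -0.038 to 0.37 for Birc3; and for TGFβ in empty-vector cells -0.088 to 0.18 for Relb, -0.078 to 0.030 for Nfkb1, -0.0081 to 0.18 for Nfkbie, -0.023 to 0.13 for Tnfaip3 and -0.42 to 0.087 for Birc3. The low estimated depth limits Icam1, Nfkbia, Nfkbie and Birc3 most.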
